A study of Mus musculus with 12 samples.

Results

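Growth factor receptors of the cell surface and the insulin receptor substrate (Irs) adaptors were followed in mouse embryonic fibroblasts (MEF) treated with halofuginone (HF), an inhibitor of the enzyme that loads proline onto its tRNA. The set held 10 of the 55536 gene IDs of the count tables and was chosen by gene symbol: the receptors Pdgfra, Pdgfrb, Egfr, Fgfr1, Igf1r, Insr, Met and Axl and the adaptors Irs1 and Irs2. All 10 symbols had a row. Cells were kept for 6 h in high-glucose medium with dialyzed serum, either with 100 nM HF or without it (control). From each condition total RNA and ribosome footprints (RPF, the mRNA fragments that a ribosome protects from RNase) were sequenced, giving 4 groups of 3 libraries. The labels as used here name no mouse strain and do not say whether the cells were immortalised. They also name no separate cultures for the libraries of a group. The p-values therefore cover only library-to-library spread, part of which may be technical.

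The 8 receptors are receptor tyrosine kinases: a ligand outside the cell activates paired receptor chains. These phosphorylate each other on tyrosines inside the cell and thereby recruit adaptor proteins. Those adaptors start the Ras and MAP kinase cascade and the PI3K and Akt pathway, which feeds into mTORC1. The insulin and IGF-1 receptors work largely through Irs1 and Irs2, large docking proteins that bind PI3K once phosphorylated. In fibroblasts, PDGF, EGF, FGF and IGF are classical mitogens, and serum supplies several of them.

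Total counts ran from 718096 to 1697554 per RNA library and from 562794 to 2527791 per footprint library. The 10 genes together took 0.179% to 0.231% of the counts of an RNA library and 0.149% to 0.187% of those of a footprint library. Levels are given as CPM (counts scaled to library size with TMM factors over the genes tested in that assay), and they are compared between conditions, not between genes, since CPM is not scaled for gene length. Of 13 fibroblast markers 11 had counts in control RNA, with Vim highest at 3073 CPM and Dcn and Lum at 0. The members Pdgfra and Pdgfrb are in this marker list. Markers of 6 other cell types summed to at most 42.7 CPM per RNA library, and that highest sum was the neural list, led by Tubb3. In control footprint libraries the neural list ran from 66.0 to 85.8 CPM. The summed fibroblast list ran from 7926 to 8281 CPM in control and from 9483 to 9801 in HF RNA, but from 16070 to 17030 in control and from 12510 to 12800 in HF footprints. In RNA the endothelial list, led by Kdr, ran from 0 to 1.61 in control and from 5.28 to 16.7 in HF. Gm42418 took 11.8% to 13.7% of the counts of control RNA libraries and 7.35% to 9.48% of those of HF RNA libraries. The part of these shifts in the results was not tested. Pdgfra, itself a common fibroblast marker, was near the detection limit, as described below.

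In RNA, 3 of the 10 genes changed with HF: Irs2 and Egfr rose and Pdgfrb fell. The RNA of 6 others was not called and that of Pdgfra was too rare to test. At the footprint level 7 of the 10 were called, with Irs2, Egfr and Axl higher and Pdgfrb, Igf1r, Fgfr1 and Met lower. The change that was largest relative to its RNA was that of Igf1r, whose footprints fell 3.60-fold while its RNA was called neither higher nor lower. Axl moved the other way, with 1.42-fold more footprints and RNA that was not called.

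Calls were made with edgeR's quasi-likelihood test at an adjusted p under 0.05 over all genes tested. In total RNA 3 of the 9 tested members were called, against 43.7% of all 9145 genes, so the members were not called more often than genes at large. In footprints it was 7 of 10, against 43.3% of 8373 protein-coding genes. Translational efficiency (TE), the footprint change relative to the RNA change, was called in 4 of 9, against 14.4% of 7926 genes. Axl was higher and Igf1r, Fgfr1 and Met were lower. Counts per gene do not show where on an mRNA the ribosomes sat, and protein made was not measured. A change in footprints or TE under HF is therefore not a measure of protein output. Calls of at least 2-fold numbered 3 in RNA, 4 in footprints and 1 in TE, against 21.5%, 22.1% and 8.13% of all genes. Control values lay wholly apart from HF values for 3 of the 9 tested members in RNA, against 51.3% of all genes, and for 7 of the 10 in footprints, against 51.4%. Each of the 9 members tested in RNA reached the filter level of 9.15 CPM in all 3 control libraries. Pdgfrb did so in only 2 of the 3 HF libraries, both in RNA and in footprints (8.73 CPM), and Pdgfra footprints did so in 2 of 3 libraries of each condition.

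**Figure D1:**
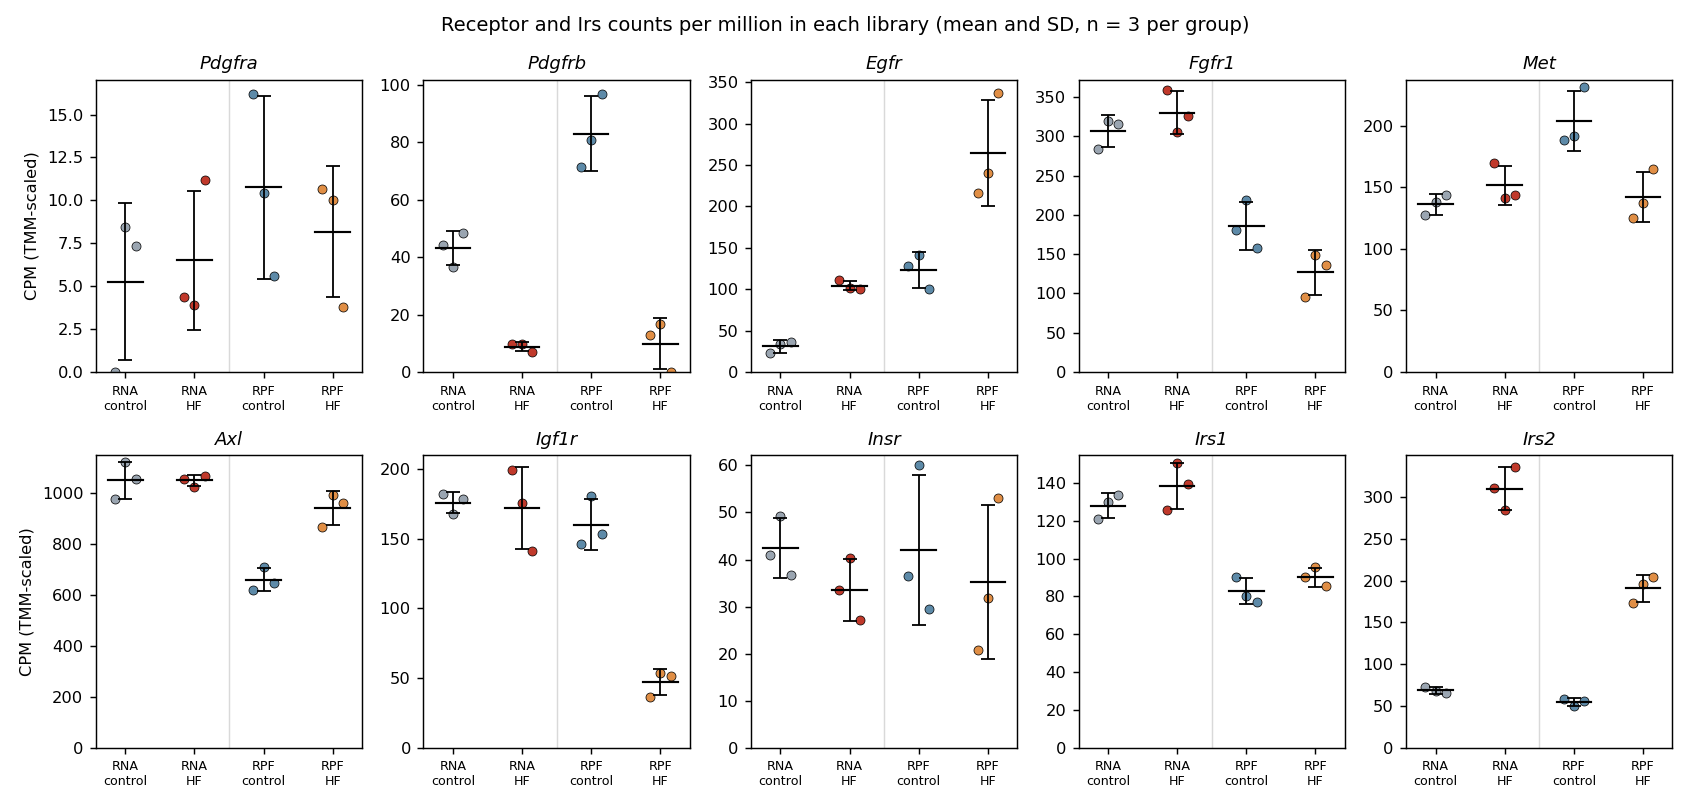
CPM of each of the 10 genes (vertical axis, from 0) in total RNA (left of each panel) and footprints (right). Each point is 1 library, the bar is the mean and the whisker the SD of 3 libraries; HF points lie apart from control points in RNA for Pdgfrb, Egfr and Irs2, and in footprints also for Fgfr1, Met, Axl and Igf1r.

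The 2 PDGF receptors bind the PDGF chains and drive migration and division of mesenchymal cells. Pdgfrb (ENSMUSG00000024620, chromosome 18 from 61045127 to 61085067 in GRCm38, whole gene with introns) had 44.3, 36.6 and 48.3 CPM in the control RNA libraries and 9.68, 9.82 and 7.06 in the HF RNA libraries. The HF values lay below every control value, at about the level of a gene that only just passes the filter. In footprints it had 71.4, 80.9 and 97.0 CPM in control and 12.9, 16.7 and 0 in HF. No Pdgfrb footprint was counted in RPF HF 3, whose total of 562794 was the lowest, while the other HF libraries held 23 and 10 counts.

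Pdgfrb RNA was 4.94-fold lower (log2 fold change −2.30, SE 0.39, edgeR adjusted p = 1.4e-06), and only 70 of 9145 genes had a fold change that low or lower. Footprints were 7.31-fold lower (−2.87, SE 0.35, edgeR adjusted p = 5.0e-08), the 31st lowest value of 8373. Without RPF HF 3 the footprint value was also called, and over 12 alternatives it ran from −3.18 to −2.52. The TE difference of −0.56 was not called (95% interval −1.66 to 0.54, edgeR adjusted p = 0.57). RNA and footprints thus both fell, by amounts that the test did not separate. In bulk samples such as these, fewer cells that express a gene and less of its RNA per cell cannot be told apart.

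Pdgfra (ENSMUSG00000029231, chromosome 5 from 75151322 to 75198206) was too rare for a test in RNA, with 13 counts over the 3 control libraries and 28 over the 3 HF libraries. RNA control 1 held 0 counts and RNA HF 3 held 19, so the groups overlapped. In footprints it had 16.2, 10.4 and 5.62 CPM in control and 10.7, 10.0 and 3.79 in HF, which also overlapped (log2 fold change −0.39, 95% interval −1.50 to 0.71, edgeR adjusted p = 0.58). At this depth the interval holds a 2-fold drop as well as no change, and it ends below a 2-fold rise.

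Egfr (ENSMUSG00000020122, chromosome 11 from 16752203 to 16913907) encodes the receptor for EGF and related ligands. Its RNA stood at 22.5, 33.8 and 36.8 CPM in control and 111, 101 and 101 in HF libraries, with no overlap. Its footprints stood at 128, 142 and 99.8 CPM in control and 217, 241 and 337 in HF, again with no overlap and with the highest value in RPF HF 3. RNA rose 3.42-fold (log2 fold change 1.77, SE 0.23, edgeR adjusted p = 2.9e-09) and footprints 2.06-fold (1.04, SE 0.16, edgeR adjusted p = 4.1e-06).

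In control cells the ratio of footprint CPM to RNA CPM of Egfr was 3.08, higher than that of 97.1% of genes. RNA and footprints were scaled apart, so such a ratio gives no number of ribosomes per RNA. In HF cells that ratio was 1.98, above 91.2% of genes. The TE difference of −0.72 (95% interval −1.29 to −0.15) missed the threshold at an edgeR adjusted p of 0.080. It passed without RPF HF 3 (−0.92, adjusted p = 0.022) and without RPF control 3 (−0.83, adjusted p = 0.049), and with all counts divided by 2 (−0.78, adjusted p = 0.048), while adjusted p-values ran from 0.022 to 0.31 over 18 alternatives.

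The 3 ligands of this receptor that passed the filter moved in the same direction as Egfr. The growth factor list held 25 ligands of the receptors studied, of which 7 passed the filter in each assay. In RNA 3 of the 7 rose, against 22.2% of all genes, and 0 fell by edgeR as fitted here or by DESeq2, with 1 lower and 3 higher at an unadjusted p under 0.05. With edgeR 1 fell with the replicate block, with counts divided by 2 or without RNA HF 1. The 3 were all EGFR ligands, of which Areg passed the RNA filter only through its HF libraries. The EGFR ligands Egf, Tgfa, Btc and Epgn, also listed, did not pass the filter in either assay. Hbegf, which encodes heparin-binding EGF-like growth factor, had 128, 162 and 115.5 CPM in control RNA and 854, 791 and 758 in HF RNA (2.58, SE 0.12). Ereg, which encodes epiregulin, had 35.4, 62.0 and 44.1 CPM in control and 217, 165 and 171 in HF (2.01, SE 0.19).

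Areg, which encodes amphiregulin, had 0, 5.64 and 4.20 CPM in control RNA and 36.1, 34.4 and 45.9 in HF RNA. Its control values all lay under the filter level of 9.15 CPM, so it entered the RNA test only through the HF libraries. The RNA direction of Areg thus adds no support. Its fold change of 3.73 rests on few control reads and was 2.99 without RNA control 1 and 4.33 without RNA control 2. In footprints 4 of 7 ligands rose and 2 fell, against 22.4% and 20.9% of all genes, with Ereg at 2.95, Areg at 2.80 and Hbegf at 2.53. Ereg also had a TE call, at 0.95 (edgeR adjusted p = 0.046), which ended under 12 of 18 alternatives, among them the replicate block (0.90, adjusted p = 0.074). Leaving out replicate 2 or 3 of either RNA group, or RPF control 1 or 2 or RPF HF 1 or 2, also ended it, with adjusted p-values up to 0.18.

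Errfi1, which encodes a feedback inhibitor that binds the EGFR kinase domain, also rose. It had 126, 125 and 124 CPM in control RNA and 364, 335 and 414 in HF RNA (1.58, SE 0.13, edgeR adjusted p = 7.0e-17). Its mean in footprints went from 76.5 ± 10.3 CPM (SD, n = 3) to 182 ± 22.5. Receptor, ligands and inhibitor were thus each higher in every HF library than in every control library, in both assays. Groups also lay apart in 51.3% of all genes in RNA and 51.4% in footprints. The ligands and Errfi1 were named for the size of their change, so their separation adds no support. Lrig1, another inhibitor of the same list, rose in RNA (0.57) and fell in footprints (−1.095).

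**Figure D2:**
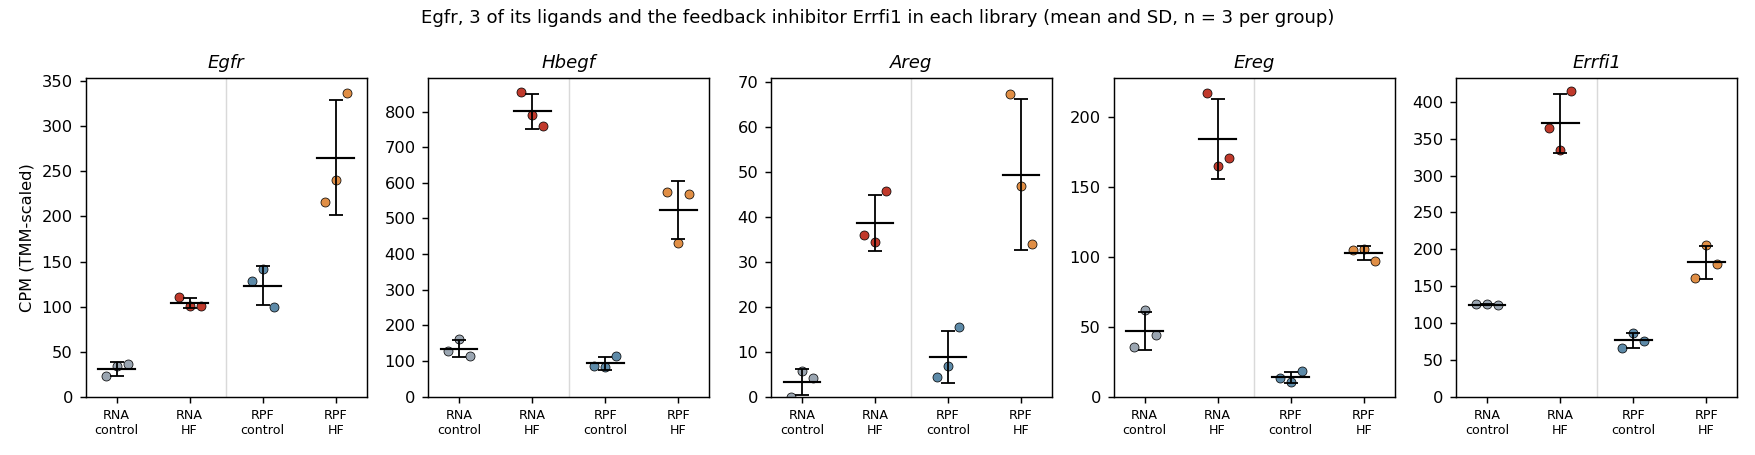
CPM of Egfr, the EGFR ligand genes Hbegf, Areg and Ereg and the inhibitor gene Errfi1 (vertical axes, from 0) in each library of total RNA and footprints; points are libraries, bars means and whiskers SD of 3. In all 5 genes and both assays the 3 HF libraries lie above the 3 control libraries, and Hbegf RNA runs from 115.5 to 162 in control and 758 to 854 in HF.

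Fgfr1, Met and Axl had RNA that was called neither higher nor lower, and footprints that were. Fgfr1 (ENSMUSG00000031565, chromosome 8 from 25518759 to 25575718), a receptor for fibroblast growth factors, had 283, 320.0 and 316 CPM in control RNA and 359, 305.5 and 326 in HF RNA, which overlapped. The RNA difference was 0.11 with a 95% interval of −0.11 to 0.34. Its footprints had 181, 219 and 157 CPM in control and 95.1, 149 and 136.5 in HF, with the highest HF library just under the lowest control library.

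Fgfr1 footprints were 1.54-fold lower (−0.62, SE 0.17, edgeR adjusted p = 0.0041) and TE was at −0.74 (SE 0.20, edgeR adjusted p = 0.0084). Leaving out RPF HF 1 ended the footprint call, at −0.39 with an edgeR adjusted p of 0.084, and so did leaving out RPF control 2, at −0.49 with 0.053, in a range of 0.00023 to 0.084 over 12 alternatives. The TE call ended without the same libraries, at −0.50 with 0.089 and at −0.60 with 0.053, in a range of 0.0014 to 0.089 over 18 alternatives. In control cells the ratio of footprint CPM to RNA CPM of Fgfr1 was 0.469, higher than that of 22.9% of genes. In HF cells that ratio was 0.299, higher than that of 10.8%.

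Met (ENSMUSG00000009376, chromosome 6 from 17463349 to 17573980) encodes the receptor for hepatocyte growth factor. RNA was at 127, 138 and 144 CPM in control and 169.7, 141.5 and 144 in HF (0.15, 95% interval −0.15 to 0.46). Footprints were at 188, 192 and 232 CPM in control and 125, 137 and 165 in HF, without overlap. The footprint fall of 1.45-fold (−0.53, SE 0.16, edgeR adjusted p = 0.0061) was not called without RPF HF 1 (−0.41, adjusted p = 0.055), in a range of 0.0016 to 0.055 over 12 alternatives.

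The TE difference of Met was −0.68 (SE 0.22, edgeR adjusted p = 0.027). That call depended on 4 of the 12 libraries: without RNA control 1 it was −0.65 with an edgeR adjusted p of 0.063, without RNA HF 1 −0.58 with 0.089, without RPF control 3 −0.60 with 0.074, and without RPF HF 1 −0.56 with 0.095. Adjusted p-values ran from 0.011 to 0.095 over 18 alternatives. The ratio of footprints to RNA went from 1.16 to 0.731.

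Axl (ENSMUSG00000002602, chromosome 7 from 25756500 to 25788924) encodes a receptor for the ligand GAS6 and had more counts than any other member. Control RNA libraries held 974, 1119 and 1052 CPM and HF RNA libraries 1055, 1024 and 1066, so that the HF values lay inside the control range. The log2 difference was 0.00 with a 95% interval of −0.17 to 0.18. Footprints went from 620, 708 and 648 CPM in control to 865, 992 and 961 in HF, with no overlap.

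Axl footprints rose 1.42-fold (0.51, SE 0.09, edgeR adjusted p = 5.1e-05) and TE rose by the same amount (0.51, SE 0.12, edgeR adjusted p = 0.0016). Both calls held under every alternative run, with TE between 0.44 and 0.58 over 18 alternatives. The ratio of footprints to RNA went from 0.487 to 0.698, from above 24.2% of genes to above 40.3%. Footprints of its relative Tyro3 fell by 2.19 on the log2 scale (edgeR adjusted p = 0.0062), a call that ended without RPF HF 1 (−1.32, adjusted p = 0.11).

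**Figure D3:**
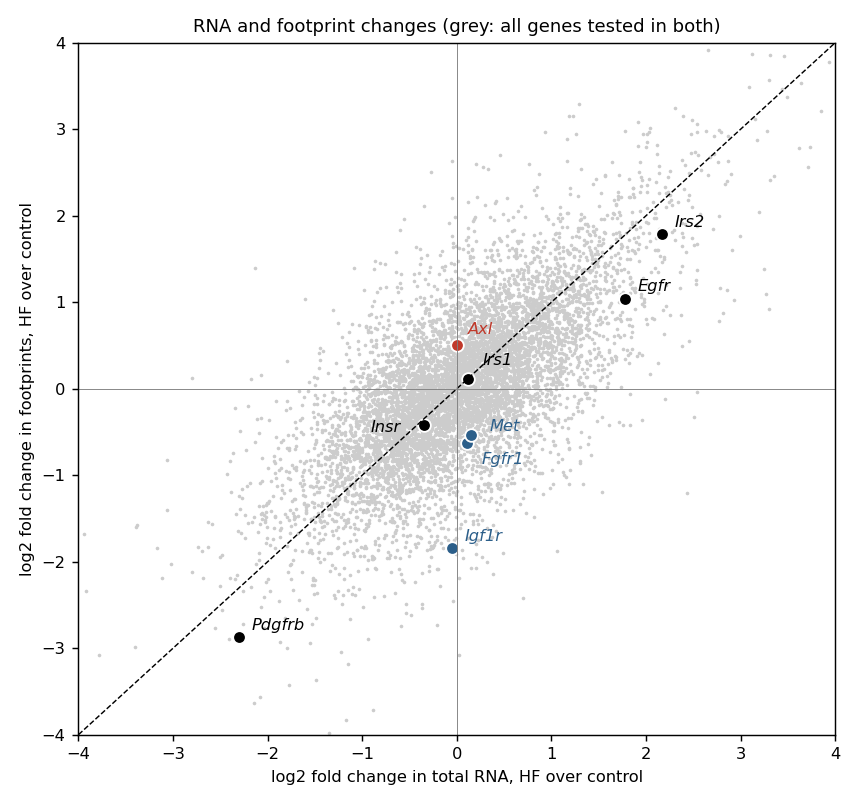
Log2 fold change in total RNA (horizontal) against that in footprints (vertical), HF over control, for 7921 genes tested in both (grey; 34 lie outside the axes, which end at 4) and 9 members. Points on the dashed line changed equally in both; blue members (Igf1r, Fgfr1, Met) had a lower and the red member (Axl) a higher TE by the interaction test, and black members were not called in TE.

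Igf1r and Insr encode the closely related receptors for IGF-1 and insulin, both made as a single chain that is cut into 2 and joined into a 4-chain receptor. Igf1r (ENSMUSG00000005533, chromosome 7 from 67952257 to 68233668) had 182, 168 and 178.5 CPM in control RNA. HF RNA libraries had 199.7, 176 and 141, spread on both sides of the control values. Footprints were at 146, 181 and 153 CPM in control and at 36.6, 53.5 and 51.2 in HF, so that the highest HF library had well under the lowest control library.

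The RNA difference of Igf1r was −0.05 (95% interval −0.33 to 0.24, edgeR adjusted p = 0.82), and it changed sign, to 0.11, without RNA HF 3. Footprints fell 3.60-fold (−1.85, SE 0.20, edgeR adjusted p = 5.1e-09), and the fall was called under all 12 alternatives, at −1.96 to −1.61. TE fell 3.48-fold (−1.80, SE 0.25, edgeR adjusted p = 4.0e-07), the 102nd lowest of 7926 values, and was called under all 18 alternatives, at −1.94 to −1.55. In control cells the ratio of footprint CPM to RNA CPM of Igf1r was 0.704, above 41.5% of genes. In HF cells that ratio was 0.213, above only 5.80% of genes.

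Insr (ENSMUSG00000005534, chromosome 8 from 3150922 to 3279649) was scarcer. RNA had 41.1, 49.3 and 36.8 CPM in control and 33.4, 40.3 and 27.1 in HF, and footprints had 36.5, 60.1 and 29.5 in control and 20.8, 31.8 and 53.1 in HF. Groups overlapped in both assays, and neither RNA (−0.34, 95% interval −0.92 to 0.24) nor footprints (−0.42, interval −1.09 to 0.24) was called. TE was at −0.07 with an interval of −0.95 to 0.82, whose lower end does not reach the Igf1r estimate of −1.80. The difference between these receptors was not tested.

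Irs1 and Irs2 are the docking proteins of both receptors, and only Irs2 was called, in RNA and in footprints; the difference between them was not tested. Irs2 (ENSMUSG00000038894, chromosome 8 from 10984681 to 11008929) had 73.3, 67.7 and 65.1 CPM in control RNA and 310.5, 285 and 336 in HF RNA. Footprints had 58.0, 49.6 and 56.2 CPM in control and 173, 196 and 205 in HF. In both assays the lowest HF library was far above the highest control library, and the control libraries lay close together.

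Irs2 RNA rose 4.51-fold (2.17, SE 0.15, edgeR adjusted p = 1.5e-20), the 169th highest of 9145 values, and footprints rose 3.46-fold (1.79, SE 0.17, edgeR adjusted p = 5.1e-10). Over the alternatives RNA stayed between 2.12 and 2.24 and footprints between 1.71 and 1.87. TE was at −0.38 (95% interval −0.83 to 0.08, edgeR adjusted p = 0.30), and the ratio of footprints to RNA was 0.616 in control and 0.480 in HF cells.

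Irs1 (ENSMUSG00000055980, chromosome 1 from 82233105 to 82291439) had 121, 129.7 and 133 CPM in control RNA and 126, 150.3 and 139.5 in HF RNA. Its footprints had 90.4, 80.3 and 77.3 CPM in control and 90.0, 95.3 and 85.3 in HF. The groups overlapped in both assays, and the differences were 0.12 in RNA (95% interval −0.19 to 0.43), 0.11 in footprints (−0.27 to 0.49) and 0.00 in TE (−0.46 to 0.47). These intervals leave out the 3-fold and larger rises seen for Irs2.

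**Figure D4:**
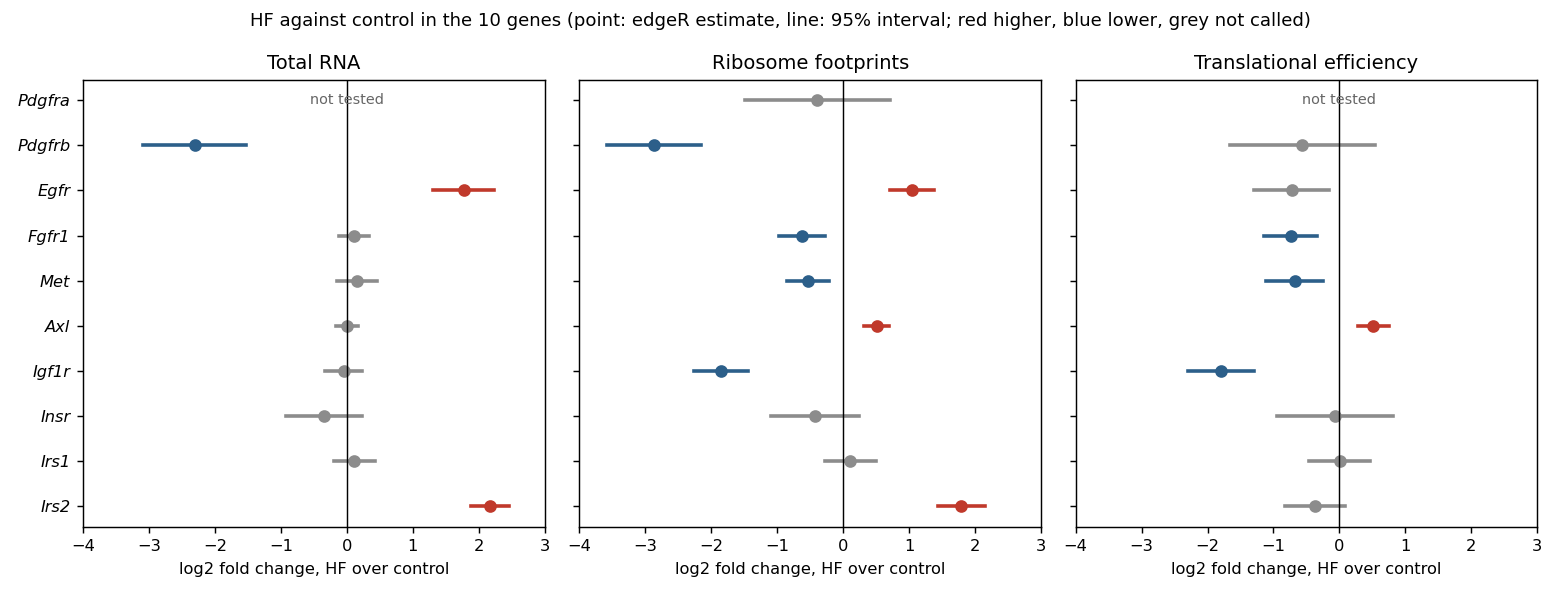
Log2 fold change of HF over control (horizontal) in total RNA, footprints and TE for the 10 genes (rows); the point is the edgeR estimate and the line its 95% interval, red where called higher, blue where called lower and grey where not called. Irs2, Egfr and Pdgfrb are coloured in RNA, and Igf1r is the member with the lowest TE, at −1.80.

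Since Irs2 RNA rose and Irs1 RNA was not called, the 250 bases before the RefSeq start of each gene (GRCm38.p6) are shown, 5′ to 3′ on the gene's strand, with the E-box CACGTG in capitals. The window of Irs2 is chr8:11008930-11009179, minus strand, and that of Irs1 is chr1:82291440-82291689, minus strand.
Irs2: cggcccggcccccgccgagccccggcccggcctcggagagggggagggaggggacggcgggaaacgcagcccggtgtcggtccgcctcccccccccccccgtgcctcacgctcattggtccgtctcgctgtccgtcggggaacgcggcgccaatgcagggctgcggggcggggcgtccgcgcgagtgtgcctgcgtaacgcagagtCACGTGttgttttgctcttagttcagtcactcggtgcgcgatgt
Irs1: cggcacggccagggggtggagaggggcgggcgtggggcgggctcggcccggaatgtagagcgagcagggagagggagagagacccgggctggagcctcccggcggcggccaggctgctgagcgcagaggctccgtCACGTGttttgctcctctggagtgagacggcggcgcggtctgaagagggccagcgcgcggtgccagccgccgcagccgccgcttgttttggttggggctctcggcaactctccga

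Both windows hold a single E-box, at positions −44 to −39 in Irs2 and −115 to −110 in Irs1, counted back from −1 at the base before the start. The longest runs that both windows share are 10 bases long: GTCACGTGTT, which holds the E-box, and TGTTTTGCTC, which overlaps that run by 4 bases in Irs1 and by 1 in Irs2, found in 0.07% and 0.0639% of the 32851 windows of the RefSeq table. The adaptor that rose and the adaptor that was not called thus share this stretch. Windows were at hand for 7 of the 10 members, without Pdgfrb, Fgfr1 and Insr. Those of Pdgfra (chr5:75152001-75152250) and Met (chr6:17463707-17463956) lay inside the gene spans given above. That of Axl (chr7:25788734-25788983, minus strand) lay partly inside its span. The Met matches below thus precede the start used for its window, not its whole gene span. CACGTG, which reads the same on both strands, was in 3 of the 7 (Irs1, Irs2 and Met), against 6.02% of all windows. The AP-1 motif TGACTCA, searched on both strands like those that follow, was in the window of Met (all windows 4.46%), and the FoxO motif GTAAACA in that of Axl (3.17%). TGATGNAAN, bound by ATF4 with C/EBP partners, and the EGR motif GCGGGGGCG were in 0 of the 7 (all windows 3.44% and 2.57%). CACGTG was the only motif of these found in more than 1 member, and no 2 matches overlapped.

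By the correlation of log2 CPM over the 12 libraries, centred within each assay, the genes with the pattern most like Irs2 among 7915 protein-coding genes were the histone genes Hist2h4 (Pearson r = 0.991), Hist1h2bg (0.990) and Hist1h1c (0.988). Histone genes have near-identical copies whose reads may be shared. Those most like Pdgfrb were Cemip2 (0.986), Clptm1l (0.983) and Lancl3 (0.982), of which Cemip2, a hyaluronan-degrading surface protein, stood at −1.86 in RNA and −2.93 in footprints. All 12 libraries share the treatment contrast, which sets most of such a correlation.

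Other receptor tyrosine kinases also went both ways. Of 43 listed, 14 passed the filter in RNA, with 4 higher and 4 lower (22.2% and 21.4% of all genes), and 15 in footprints, with 6 higher and 5 lower (22.4% and 20.9%). Among the 6 higher in footprints, Epha7 passed the filter only through its HF libraries, so its direction was set by the filter. It had 6.89, 1.23 and 2.81 CPM in control, under the filter level of 8.73, and 21.95, 25.09 and 15.17 in HF. The list's medians were 0.06 in RNA and −0.54 in footprints. Epha2, an ephrin receptor, went from 275 to 701 CPM in RNA and from 311 to 1161 in footprints, and had a higher TE (0.56, edgeR adjusted p = 0.0024). Ephb4 fell in RNA (−1.50) and footprints (−2.22), and the collagen receptor Ddr2 rose in RNA (1.23). The list had 7 footprint calls in place of 11 without RPF control 2. Its TE calls, 1 higher and 2 lower of 14 (all genes 6.13% and 8.23%), came to 1 without RNA HF 3.

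Among co-receptors and IGF-binding proteins, 5 of 12 rose and 3 fell in RNA (all genes 22.2% and 21.4%), with Igfbp4 at −1.07 and Igfbp7 at −1.08. In footprints 4 of 13 rose and 3 fell (all genes 22.4% and 20.9%). The list's medians were 0.20 in RNA and −0.15 in footprints, beside −0.02 over all genes in each. Lrp1, an endocytic receptor that also binds PDGFRβ, showed lower footprints (−1.17, SE 0.09) and a lower TE (−0.97, edgeR adjusted p = 1.1e-08), with its RNA not called at −0.19. The proteoglycan Sdc4 rose in footprints by 1.30.

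The list for receptor maturation and shedding held enzymes, the chaperones Hsp90b1 and Mesd, and the protease inhibitors Timp1, Timp2 and Timp3. In RNA 2 of 16 were higher and 5 lower, 43.8% called against 43.7% of all genes. In footprints 3 of 16 were higher and 6 lower, 56.2% against 43.3%. Those called higher were Timp1 and Timp3 in RNA, and Timp1, Timp2 and Timp3 in footprints, so no enzyme of the list was. The medians were −0.19 and −0.60. Furin, the protease known to cut the precursors of Igf1r, Insr and Met, went from 34.9 ± 3.42 CPM (SD, n = 3) to 6.82 ± 0.706 in footprints (−2.40, SE 0.41) and was lower in TE (−1.63, edgeR adjusted p = 0.0017). Timp3, an inhibitor of shedding proteases, rose in RNA (2.64) and footprints (2.98), and Timp2 rose in footprints (0.51) and TE (0.97) and fell in RNA (−0.45).

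The list of adaptors other than Irs1 and Irs2 also held enzymes that act next to receptors, such as Src, Fyn and Plcg1. In RNA 5 of 22 were higher and 5 lower, with Shc1 at −1.71 and Dok1 at −1.54. In footprints 4 of 18 rose and 4 fell. These shares, 45.5% and 44.4%, lay near the 43.7% and 43.3% of all genes, and the medians were −0.27 and 0.18. Grb2, the adaptor that links receptors to Ras, rose in footprints (1.04) and TE (1.46, edgeR adjusted p = 0.0014), while its exchange factor Sos1 fell in footprints (−1.84) and TE (−1.57, edgeR adjusted p = 0.013). Sos1 values were −2.91 and −2.65 without RPF HF 1. The 8 footprint calls of this list came to 4 with DESeq2 and to 5 without RPF control 1, RPF control 2 or RPF HF 1. Its 5 TE calls, 3 higher and 2 lower of 18 (all genes 6.13% and 8.23%), came to 3 without RNA HF 2 or RPF control 1.

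In the PI3K and Akt arm, 6 of 21 rose and 6 fell in RNA (all genes 22.2% and 21.4%) and 3 of 20 rose and 5 fell in footprints (22.4% and 20.9%), with medians of −0.08 and −0.40. In TE 0 of 20 rose and 6 fell, against 6.13% higher and 8.23% lower among all genes. The list mixes kinases of the arm with its antagonists. Those that fell were Akt2, Sgk1 and Pik3ca, the Akt phosphatases Phlpp1 and Phlpp2, and Foxo3. By DESeq2 0 rose and 5 fell in TE, and at an unadjusted p under 0.05 edgeR had 1 higher and 12 lower. The list's median TE difference was −0.68, beside 0.00 over all genes. Its TE calls came to 3 without RNA HF 1 or RNA HF 2. Akt1 fell in RNA (−1.99, SE 0.12) and footprints (−2.20, SE 0.30), and the PI3K regulatory subunit Pik3r2 in RNA (−2.08) and footprints (−3.56). Pik3ca, the catalytic subunit, was lower in TE (−1.70, edgeR adjusted p = 0.0043), as was the Akt phosphatase Phlpp2 (−1.33), whose RNA rose (0.98). Foxo3, a transcription factor that Akt keeps out of the nucleus, rose in RNA (1.45) and was lower in TE (−1.21, edgeR adjusted p = 0.0086), with footprints not called at 0.19.

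Irs2 and Insr are themselves reported targets of FoxO factors. Among 12 other reported targets tested in RNA, 4 rose and 3 fell (all genes 22.2% and 21.4%), and in footprints 5 of 11 rose and 2 fell (all genes 22.4% and 20.9%). The medians were −0.05 in RNA and 0.18 in footprints, beside −0.02 over all genes in each. Txnip rose by 5.54 in RNA and 5.70 in footprints, Gadd45a by 4.17 and 4.96 and Bcl6 by 1.82 and 2.22. The RNA value of Gadd45a was 5.27 without RNA control 3. Those that fell in RNA were Sod2 (−1.15), Bcl2l11 (−1.22) and Sesn1 (−1.15), and Sod2 (−1.19) and Sesn1 (−1.50) also fell in footprints. TE was called in 0 of 11 by edgeR, against 14.4% of all genes, and in 0 by DESeq2. At an unadjusted p under 0.05 edgeR had 1 higher and 0 lower, and it called 1 without RNA control 1 or RPF HF 2.

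The Ras and MAP kinase arm had 5 of 22 higher and 4 lower in RNA, 40.9% called against 43.7% of all genes, and 4 of 23 higher and 8 lower in footprints, 52.2% against 43.3%. The medians were −0.03 and −0.19. Braf rose in RNA (2.36) and footprints (1.16), Map2k2 fell in RNA (−1.29) and footprints (−1.43), and the Ras inhibitors Nf1 (−1.52) and Rasa1 (−1.47) were lower in TE, the RNA of Nf1 having risen by 0.59. TE calls of this list, 1 higher and 4 lower of 22 (all genes 6.13% and 8.23%), came to 3 without RPF control 2. Feedback inhibitors and ubiquitin ligases had 8 of 29 higher and 3 lower in RNA, 37.9% called against 43.7% of all genes. In footprints 8 of 26 were higher and 7 lower, 57.7% called against 43.3%. The medians of this list were 0.25 and 0.36. In TE 1 of 26 was higher and 5 lower, against 6.13% and 8.23% of all genes. Spry2, an inhibitor induced by receptor signalling, rose in footprints (2.97) and TE (2.04, edgeR adjusted p = 2.1e-06). Spred1 (−2.17) and Lrig1 (−1.67), which restrain Ras and EGFR family receptors, were lower in TE, Spred1 at −2.92 without RPF HF 1.

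**Figure D5:**
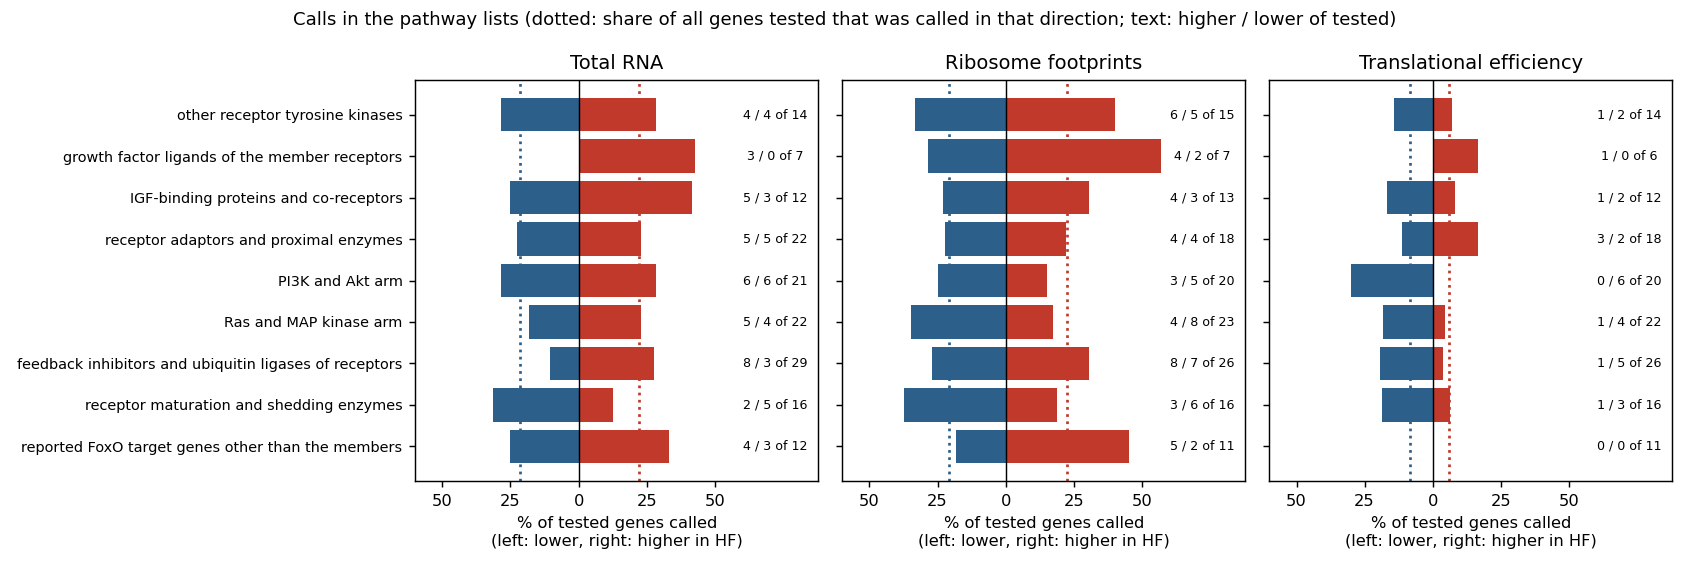
Share of the tested genes of each list that was called higher (right, red) or lower (left, blue) in HF cells, in total RNA, footprints and TE; dotted lines give the same shares over all genes tested, and the text the counts. The PI3K and Akt arm, a list that also holds Akt antagonists, has 6 lower and 0 higher of 20 in TE. The ligand list has 3 higher and 0 lower of 7 in RNA, and of these 3 Areg passed the filter only in HF libraries.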

How the data were processed

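Per the submitters' processing notes, Bowtie, HISAT2, HTSeq and the build GRCm38 were used, with no versions or order. The authors deposited whole-number counts of reads per Ensembl gene ID, with no normalization, for 12 libraries of MEF. Neither the counted feature nor strand use nor the treatment of multi-mapping reads is given in the sources used here, so overlapping, antisense or duplicated genes may share reads. Symbols matched 55450 of 55536 IDs, and 21409 were protein-coding by RefSeq.

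Tests used edgeR 4.0.16 in R 4.3.3 (quasi-likelihood, TMM, filterByExpr with a minimum count of 10, Benjamini-Hochberg): RNA over all genes, footprints over protein-coding genes, each on 6 libraries, and TE as the interaction of assay and treatment over 12. The SE of a fold change is its size over the square root of F. Scaling makes each change one relative to most other genes. Scripts were tested on simulated data. Alternatives were relative log expression or upper-quartile factors, no filter, DESeq2 1.42.0, a replicate block, counts divided by 2 (low counts were mostly even), protein-coding genes only for RNA, and each library left out.

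Members and lists were chosen with earlier results of these data known. Some list genes reached the filter level in only 1 condition, such as Areg RNA and Epha7 footprints in HF. Furin and Pik3r2 footprints did so only in control. For such genes the direction was set by the filter. Besides members, the naming rule took up to 3 called genes per list and comparison with the largest change and a mean log2 CPM of at least 3; several of these with few counts or calls lost without 1 library are given only in the counts. Footprints per coding length and protein composition were planned and not analysed here.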

Additional observations from a re-analysis of the deposited data

Results flagged for a closer look

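In 4 genes the HF effect on footprints differed from the HF effect on RNA by the interaction test, which drew attention to them. The log2 difference was −1.80 for Igf1r, −0.74 for Fgfr1 and −0.68 for Met, and 0.51 for Axl. For Igf1r and Axl it was called under all 18 alternatives, and for Fgfr1 and Met the calls ended without single libraries, as given with their values.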

How the results depend on the processing

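In total RNA 3 members were called under all 13 alternatives, and leaving out each library gave 3 to 3. In footprints leaving out each library gave 5 to 7 calls in place of 7, and the other 6 alternatives gave 7. In TE leaving out each library gave 2 to 5 calls in place of 4, with 2 (Axl and Igf1r) without RPF HF 1, and counts divided by 2 gave 5. Of 395 member fold changes under an alternative, 9 lost a call, 3 gained one, and 1 that was not called, Igf1r RNA without RNA HF 3, changed sign by more than its SE. The other 382 kept their side of the threshold, with sign changes only within 1 SE among values not called. Upper-quartile factors moved the median of all genes by −0.05 in RNA and −0.08 in footprints. No pairing of libraries by replicate number was seen. With group means taken out, same-numbered control and HF libraries correlated at −0.01 to 0.011 and same-numbered RNA and footprint libraries at −0.033 to 0.018. No pairing had more than 3 of 6 libraries correlate best with their own number. Counting noise can hide a shared culture, so these values do not exclude one. With the replicate block 3 members were called in RNA, 7 in footprints and 4 in TE, and 3933, 3547 and 1041 genes in all against 3992, 3622 and 1138. The alternative for coding length was not run. Few counts limit Pdgfra, Pdgfrb in HF libraries, and Insr.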
